A study of Mus musculus with 6 samples.

Results

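The genomic neighbourhood of Cd4 and Lag3 on mouse chromosome 6 was examined for mSin3A, mapped by chromatin immunoprecipitation and sequencing (ChIP-seq) in CD8 T cells. The members are all mSin3A islands (regions of enriched reads called by the authors, 1 list per library) that overlapped chr6:124800000-124870000 on the mm9 build. They were chosen by position, and this place was picked with earlier results of the same lists known, so its values are given as a description with no test. The window held 9 of the 54058 islands in the 4 lists. There was 1 island in wild-type (WT) condition 1, 2 in WT condition 2, and 3 in each of the libraries from cells lacking Tcf1 and Lef1 (deficient condition 1 and condition 2). The lists carry no gene names. Cd4 lies at about 124814700 to 124838300 and Lag3 at about 124854400 to 124861800, both transcribed from the minus strand, and distances below are from these approximate positions.

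Cells were splenic T cells sorted for high T cell receptor beta and for CD8. WT mice were compared with Tcf1-/-Lef1-/- mice, in which both factors had been removed by a Cre recombinase driven from Cd4 sequences (CD4-Cre). The controls are labelled wild type, which is taken here to mean without the transgene. Ages, numbers of animals and what separates condition 1 from condition 2 are not given either, so each combination of genotype and condition is 1 library without replicate and the conditions were not averaged. One input library per genotype belongs to the series and was not analysed here. The lists held 11151 to 15954 islands with 1792952 to 1917097 reads in all, and total sequencing depth is unknown.

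CD4 is the co-receptor of helper T cells and binds MHC class II. In cytotoxic CD8 T cells the gene is kept off, which depends on a silencer in its first intron that is bound by Runx factors. Its neighbour Lag3 encodes an inhibitory receptor of activated T cells that is related to CD4 in structure and also binds MHC class II. mSin3A is the scaffold of a co-repressor complex that holds histone deacetylases, and Tcf1 and Lef1 are HMG-box factors with a role in silencing Cd4 in the CD8 lineage.

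The 5′ end of Cd4 carried one of the richest mSin3A islands of either deficient library, whereas the WT libraries held a small island there in condition 2 and none in condition 1. Upstream of it, the interval between the genes and Lag3 itself held islands of ordinary density. When islands of any list that overlapped or adjoined were joined, the window held 4 merged regions. No island lay over the 3′ part of Cd4 in any list.

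**Figure D1:**
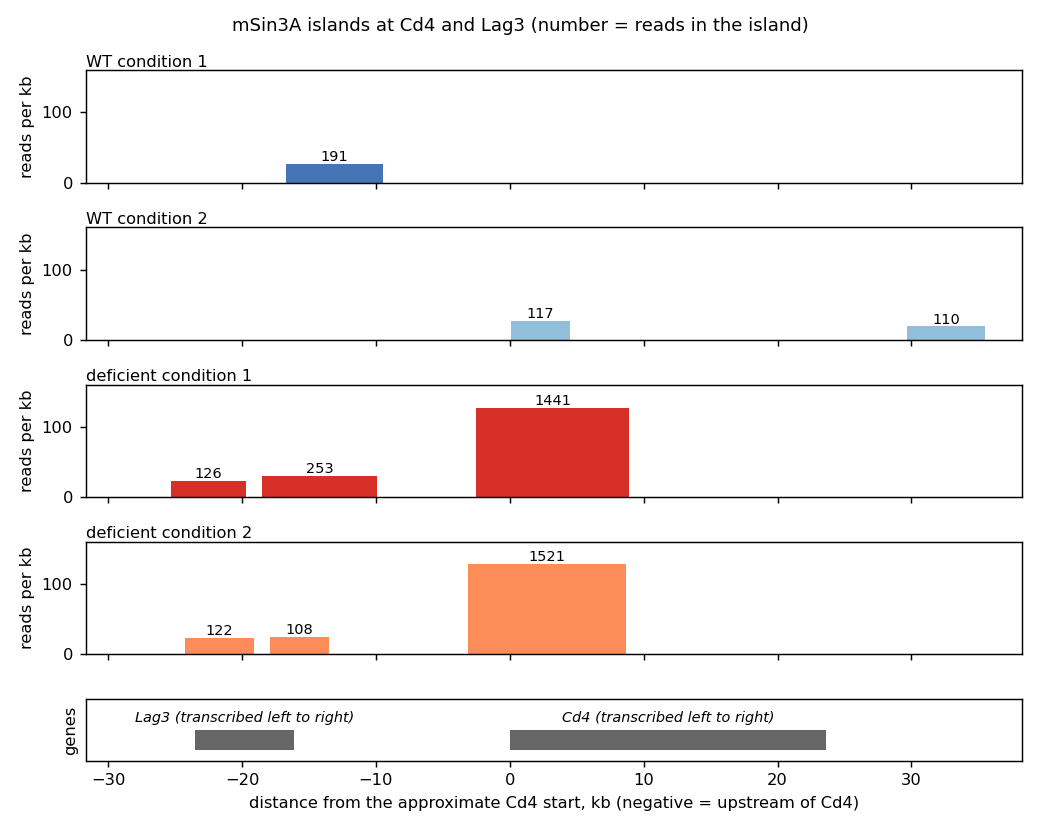
Islands of the window in each of the 4 libraries, against distance from the approximate Cd4 start in kb (negative values are upstream of Cd4). Bar width is the called length, bar height is reads per kb of island, and the number above a bar is the reads it holds: 1441 and 1521 reads at the 5′ end of Cd4 in the deficient libraries, against 117 in WT condition 2.

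At the 5′ end of Cd4, the island of deficient condition 1 was chr6:124829401-124840799 and held 1441 reads. In deficient condition 2 it was chr6:124829601-124841399 and held 1521 reads. WT condition 2 listed chr6:124833801-124838199 with 117 reads, and WT condition 1 listed no island here. Both deficient libraries were thus far above the only WT value. A place without an island has an unknown read number, so no ratio can be given for condition 1. In condition 2 the deficient island held 12.2 times the WT reads after scaling to the total island reads of each list. The exact Clopper-Pearson 95% interval was 10.1 to 14.8, for counting error only. That ratio compares islands of unlike length, 11799 bp (deficient) and 4399 bp (WT). WT reads over the rest of the deficient island are unknown.

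The gap was in density as well as in called length. Density was 126 reads per kb in deficient condition 1 and 129 reads per kb in deficient condition 2. It was 26.6 reads per kb in WT condition 2, close to the median of 28.2 reads per kb over all islands of that list. The density ratio in condition 2 was 4.85. Among the 6860 merged regions called in both genotypes in condition 2, this region ranked 1st by density ratio and 2nd by read ratio, where the median read ratio was 0.870 and the 99th percentile was 2.33. Of these regions, 1.84% had a scaled read ratio of 2 or more and 1.33% a density ratio of 2 or more.

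The deficient islands also stood apart within their own lists. By reads they ranked 6th of 15954 islands in condition 1 and 9th of 13556 in condition 2, and by density they ranked 31st and 26th. Islands of similar width (within 10%) held a median of 287.5 reads in condition 1, over 314 islands, and 298 reads in condition 2, over 345 islands. The Cd4 island held the most reads of each such set. The next highest held 635 reads in condition 1 and 1442 reads in condition 2. In WT condition 2, islands as wide as the Cd4 island held a median of 124 reads, near its 117.

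**Figure D2:**
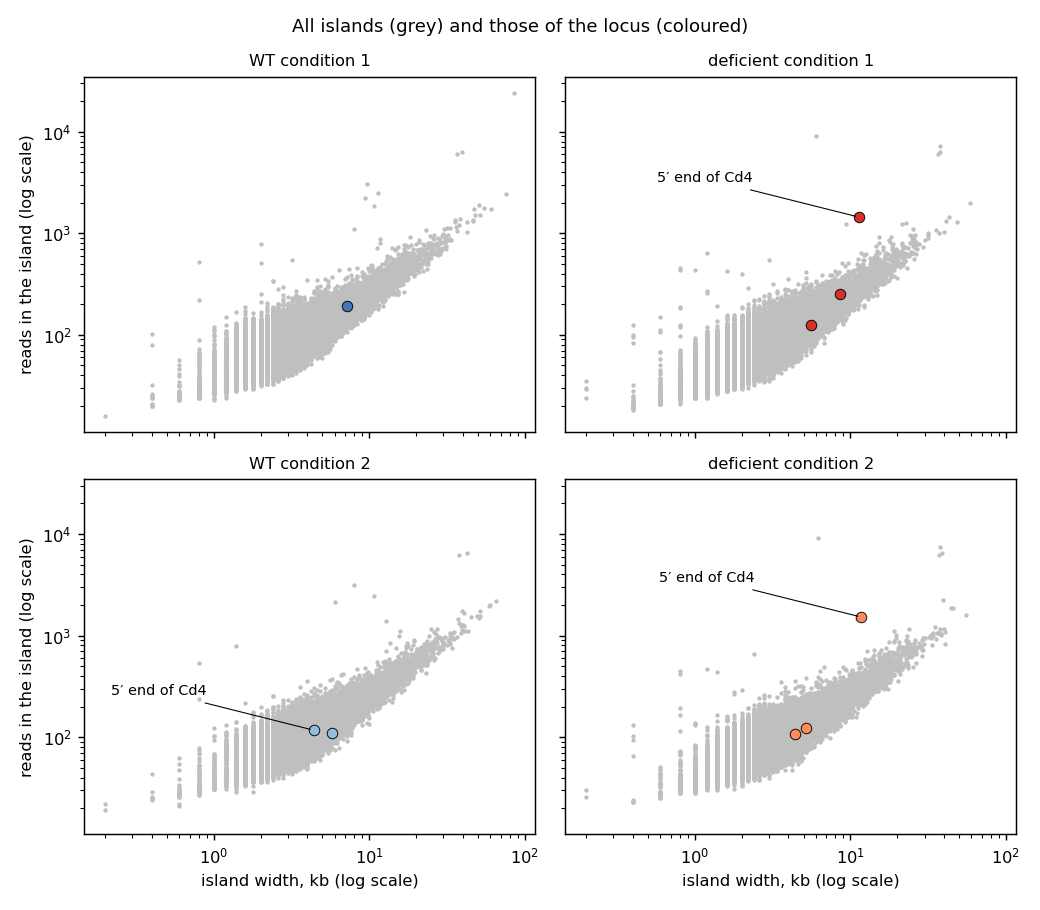
Reads in an island against island width in kb, both on log scales, for every island of each library (grey) and for the islands of the Cd4 and Lag3 window (coloured, outlined). In the deficient libraries the island at the 5′ end of Cd4, with 1441 and 1521 reads, lies above the band formed by most islands, while the remaining coloured points lie inside it.

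The edges of this dense island were close in the separate deficient libraries. Starts differed by 200 bp, which is 1 step of the grid on which all island starts fall, and ends differed by 600 bp. Reads in condition 2 were 1.05 times those in condition 1 after scaling (95% interval 0.974 to 1.13, counting error only). Measured from the approximate start of Cd4, the island ran from 2.50 kb upstream to 8.90 kb inside the gene in condition 1, and from 3.10 kb upstream to 8.70 kb inside it in condition 2. It covered 37.7% and 36.9% of the gene.

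For comparison of distances only, the GENCODE annotation of the later GRCm38 build gives Cd4 a first exon of 142 bp and a first intron of 8.39 kb. There exon 2 begins 8.53 kb and exon 3 ends 8.92 kb from the start of the gene, which is 23.5 kb long, against 23.6 kb for the approximate mm9 position. By these distances the deficient islands spanned the promoter, exon 1 and the whole of intron 1, where the silencer lies, and ended near exons 2 and 3. The WT condition 2 island, 0.101 to 4.50 kb inside the gene, began near the end of exon 1 and fell on the promoter-proximal part of intron 1. Whether it also took in the silencer was not determined, since no position of the silencer within the intron was used here. An island is listed with a single read number, so where inside it the reads lay cannot be seen.

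A Cre transgene driven from Cd4 sequences was present in the deficient cells. Any Cd4 segments it carries have the sequence of the native gene, so their reads would be placed there. Which segments the construct holds and its copy number are not given in the labels, whether they match the dense island was not tested, and the inputs were not analysed here. More mSin3A at the native Cd4 gene and reads from the transgene cannot be told apart in these lists, because the transgene goes with the genotype.

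High density alone was rare but not limited to Cd4. Islands of at least 100 reads per kb made up 0.219% of the list in deficient condition 1 (35 islands) and 0.221% in condition 2 (30 islands). Merged regions of at least 100 reads per kb in both deficient libraries numbered 22. Of these, 5 were as dense in both WT libraries and 7 in 1 WT library, all 7 without an island in the other WT list. Another 8 were in no WT list, so their WT density is unknown. The remaining 2 had a listed WT density below 100 reads per kb, in 1 WT library each. These were the Cd4 region, at 26.6 reads per kb, and a region of chromosome 13 starting at 113368201, at 42.8 reads per kb. The chromosome 13 region is named for its values. Unlike Cd4, it held more listed reads in WT condition 1, 171 over 3999 bp, than in the deficient libraries. Those listed 120 and 115 reads over 799 bp each. The 9 regions other than Cd4 with no listed WT density of 100 had a median called width of 799 bp in the deficient libraries, and their widths ran from 199 to 10999 bp. The Cd4 region, at 11399 and 11799 bp, was wider than each of them. The widest of them, on chromosome 18 starting at 3002601, was close to it and in no WT list. It held 1242 and 1442 reads over 9399 and 10999 bp, at 132 and 131 reads per kb, in deficient conditions 1 and 2. By reads and by density, however, Cd4 was not the highest of this set. A region of chromosome 17 starting at 39979801, also in no WT list, held 9074 and 9080 reads over 5999 and 6199 bp. Its densities were 1513 (condition 1) and 1465 (condition 2). Across the 9 regions other than Cd4, density ranged from 119 to 1513 reads per kb.

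Between Cd4 and Lag3, mSin3A islands were listed in 3 libraries at ordinary density. WT condition 1 held 191 reads at chr6:124847801-124854999, deficient condition 1 held 253 reads at chr6:124848201-124856799, and deficient condition 2 held 108 reads at chr6:124851801-124856199. WT condition 2 listed none. The WT value lay between those of the deficient libraries. This stretch begins 9.50 kb upstream of the approximate Cd4 start, and its far end enters the 3′ part of Lag3. An enhancer of Cd4 is known to lie upstream of the gene on this side.

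Densities in the interval were 26.5 reads per kb in WT condition 1, 29.4 in deficient condition 1 and 24.6 in deficient condition 2. The condition 1 read ratio was 1.29, deficient over WT (95% interval 1.07 to 1.57, counting error only), and the density ratio was 1.11. This read ratio ranked 971st of the 7605 regions called in both genotypes in condition 1, of which 2.26% passed 2-fold toward deficient cells. The deficient libraries differed more from each other here than the genotypes did in condition 1: condition 2 had 0.423 times the reads of condition 1 (95% interval 0.335 to 0.533), over 4399 against 8599 bp.

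Over the body of Lag3, islands were listed in both deficient libraries and in neither WT library. Deficient condition 1 held 126 reads at chr6:124858001-124863599 and deficient condition 2 held 122 reads at chr6:124857401-124862599. These islands were close in reads, with a scaled ratio of 0.961 for condition 2 over condition 1 (95% interval 0.743 to 1.24). They reached 1.80 and 0.799 kb beyond the approximate start of Lag3 and so took in its promoter side. Their densities, 22.5 and 23.5 reads per kb, were below the medians of their lists, 27.2 and 28.1 reads per kb. They were also less rich than islands of like width, whose medians were 144 and 141 reads.

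With the adjoining interval included, islands covered 83.8% of Lag3 in each deficient library, 8.11% in WT condition 1 and none in WT condition 2. A call in both deficient and neither WT library was made for 8.98% of all 23510 merged regions, so this pattern by itself was common. The reads of the WT libraries over this stretch are unknown.

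On the other side, beyond the 3′ end of Cd4, WT condition 2 alone listed an island, chr6:124802801-124808599, with 110 reads. It ended 6.10 kb from the approximate 3′ end of Cd4. At 19.0 reads per kb it was among the sparser islands of its list, where 89.2% were at least as dense. Regions called in WT condition 2 alone made up 9.27% of all merged regions. The next coding gene on this side is Gpr162, which encodes an orphan receptor, by the gene order of the GRCm38 RefSeq annotation, and the next one beyond Lag3 is Ptms, which encodes parathymosin.

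**Figure D3:**
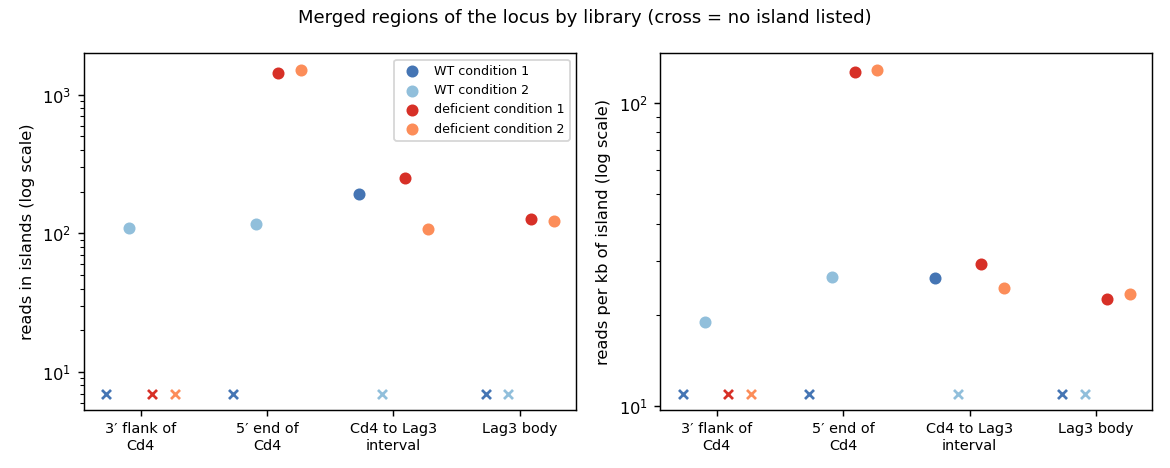
Reads (left) and reads per kb of island (right), on log scales, in the 4 merged regions of the window, with 1 point per library and a cross where a library listed no island. Both deficient points at the 5′ end of Cd4, at 126 and 129 reads per kb, lie apart from all others, which run from 19.0 to 29.4 reads per kb.

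None of the 4 merged regions was called in all 4 libraries, against 24.0% of merged regions in the series. Regions called in both deficient libraries numbered 3 of the 4, against 41.4%, and 0 of the 4 were called in both WT libraries, against 29.4%. The patterns of the 5′ end of Cd4 (missing in WT condition 1) and of the interval (missing in WT condition 2) were those of 3.53% and 4.89% of merged regions. By bases, the WT libraries shared nothing in the window, while the deficient libraries shared 20197 bp, or 75.4% of the bases covered in either. Over the whole lists these shares were 36.5% and 44.1%. Pairs of different genotype shared 12.6% to 26.2% in the window, against 34.6% to 35.6% over the whole lists.

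Summed over the window, listed reads were 191 in WT condition 1, 227 in WT condition 2, 1820 in deficient condition 1 and 1751 in deficient condition 2. Both deficient sums lay far above both WT sums. The scaled ratio of these sums, deficient over WT, was 9.31 in condition 1 (95% interval 8.02 to 10.9) and 7.21 in condition 2 (6.28 to 8.32), where the intervals cover counting error only. Such a sum leaves out the reads of every place that a list does not call. Of the bases covered in the deficient library, only 26.6% in condition 1 and 20.6% in condition 2 were also in WT islands. These ratios thus compare what was listed and are not a fold change at any site. Covered length was 7199 and 10198 bp in WT against 25597 and 21397 bp in deficient cells, or 3.56 and 2.10 times as much. Mean density over covered bases, in reads per kb, was 26.5 and 22.3 for the WT libraries against 71.1 and 81.8 for the deficient ones. The island at the 5′ end of Cd4 held 79.2% and 86.9% of the listed reads in the deficient libraries. Apart from islands on Cd4, WT condition 1 listed 191 reads in the interval, WT condition 2 listed 110 reads beyond the 3′ end of Cd4, and the deficient libraries listed 379 and 230 reads in the interval and over Lag3. In that remainder the interval in condition 1, with its ratio of 1.29, was the only place listed in both genotypes of a condition.

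Between conditions, the deficient libraries listed the same 3 places, whereas the WT libraries listed different ones. The sum of listed reads in condition 2 was 0.954 times that in condition 1 in deficient cells (95% interval 0.893 to 1.02). In WT the sums were similar (227 and 191 reads) although no base was shared, so their ratio describes no place.

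Of 12225 windows of equal length that held an island in any list, the median window held 69.0 to 90 reads per library. As many listed reads as at Cd4 and Lag3 were found in 24.9% and 20.6% of windows in the WT libraries, and in 0.0573% and 0.0736% in the deficient libraries.

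The flanks of the window held no such excess of reads in deficient cells. Within 100 kb on either side of the window lay 7 merged regions, all called in all 4 libraries, with 23.0 to 56.0 reads per kb. Their summed reads, deficient over WT, had a scaled ratio of 0.812 in condition 1 (95% interval 0.761 to 0.868) and 0.932 in condition 2 (0.875 to 0.992). Single flanking regions ran from 0.504 to 1.36 in condition 1 and from 0.445 to 1.30 in condition 2. Both lowest values came from the same region, the nearest beyond Lag3, starting at 124878201. Its density was nonetheless higher in the deficient libraries, at 39.0 and 44.6 reads per kb against 24.2 and 27.4 in WT conditions 1 and 2. The nearest islands outside the window ended 17.0 to 18.6 kb below it and began 8.20 to 10.2 kb above it, so none lay at its edge.

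**Figure D4:**
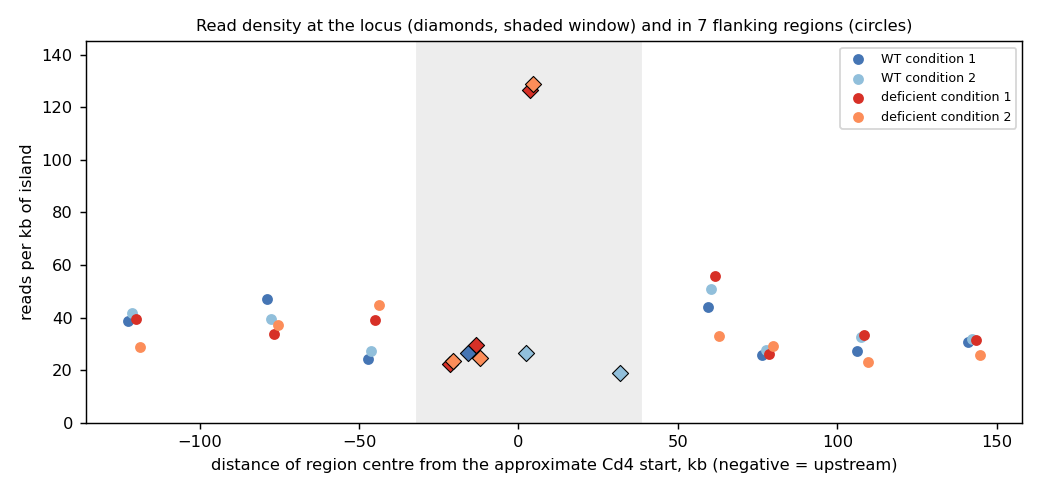
Reads per kb of island for the merged regions of the window (diamonds, shaded) and for the 7 flanking regions (circles), against the distance of the region's centre from the approximate Cd4 start in kb, with points of the 4 libraries shifted slightly sideways. Flanking regions stay between 23.0 and 56.0 reads per kb in each library, and the deficient diamonds at the 5′ end of Cd4 stand at 126 and 129.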

How the data were processed

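ChIP-seq for mSin3A was done on sorted splenic CD8 T cells, with 1 library per genotype and condition. Per the submitters' processing notes, the tools were FastQC, Bowtie2 2.2.5 and SICER 1.1 on mm9. For SICER settings and input use, the sources used here give nothing. The authors deposited 1 list per ChIP library without header, and its last column was read as the count of reads in an island, unscaled for depth or width. Starts had 1 added, ends are as deposited, and widths are end minus deposited start. Merging, scaled ratios (total island reads) and exact 95% intervals were computed with Python 3.11.15, numpy 2.4.6, pandas 2.3.3 and scipy 1.17.1, and tested on simulated data. The simulated regions lay well apart, and their islands shared an end and differed little in start. Islands of very unlike width at the same place, as at Cd4, were therefore not covered by it. The window, the members and the lists were chosen with earlier results of these data known. Text names Cd4, Lag3, their neighbours and every island of the window. Gene and marker lists were not analysed, since no mm9 annotation was at hand, and the labelled cell type was not checked.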

Additional observations from a re-analysis of the deposited data

How the results depend on the processing

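Of 30 alternatives, 21 left the value within its counting interval or identical, 9 moved it and 0 reversed it. Several of the 21 could not have changed it, so the tally is no measure of robustness. Every island of the window was wider than 1 kb and lay wholly inside the window. Limits on width or to bases inside the window therefore changed nothing. In condition 1, islands on Lag3 and islands not on Cd4 were the same ones, so their ratio of 1.94 entered under both names. Ratios below are of summed listed reads or lengths, deficient over WT, and most count deficient islands where the WT list holds none. Islands on Cd4 alone gave a read ratio of 12.2 in condition 2, from overlapping islands of 11799 bp (deficient) and 4399 bp (WT). Islands on Lag3 alone gave 1.94 in condition 1, where the WT list has the interval island but none over the Lag3 body. Without the islands on Cd4, an alternative chosen after seeing the data, the sums gave read ratios of 1.94 and 1.96 and length ratios of 1.97 and 1.66 in conditions 1 and 2. In condition 2 these islands share no place, so no fold change follows. Joining islands within 2 kb gave length ratios of 3.72 and 2.22. Scaling by the flanking regions, also chosen afterwards, gave a read ratio of 11.5 in condition 1 and 7.74 in condition 2. No value could be had where a list held no island, which was the case for Cd4 alone in condition 1, Lag3 alone in condition 2 and the upper 50% of lists by reads in condition 2. No merged region was called in all 4 libraries in the main count or under any of the 4 alternatives run. Only merging within 2 kb could have raised that count, since the other alternatives just add a filter. No paired analysis of single regions was possible because no region of the window was listed in all 4 libraries. None was run on the window sums, and no result comes from a test. Genotypes were set side by side within each condition, and with 1 library per group no replicate could be left out. Depth beyond island reads, the input signal and reads at uncalled places are unknown.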
